A study of Homo sapiens with 5 samples.

Results

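Peaks at the genes of the E proteins and their ID inhibitors were examined in MOLT-4, an established cell line from a human acute lymphoblastic leukaemia of T cells. The genes were TCF3, TCF12 and TCF4, which encode the E proteins, and ID2 and ID3, which encode inhibitors. Members were all peaks that shared at least 1 bp with 1 of 5 fixed hg19 windows around these genes. The TCF3 window ran from 1600000 to 1660000 on chromosome 19, the TCF12 window from 57190000 to 57600000 on chromosome 15 and the TCF4 window from 52870000 to 53320000 on chromosome 18. The ID2 window ran from 8780000 to 8860000 on chromosome 2 and the ID3 window from 23860000 to 23910000 on chromosome 1. The windows held 48 of the 51455 deposited peaks, namely 1 of 1479 peaks of the target labelled SMA4, 39 of 36777 RUNX1 peaks and 8 of 13199 H3K4me3 peaks. H3K4me3 marks promoters that are active or poised, and RUNX1 is a runt-family transcription factor needed for blood formation. The label SMA4 does not spell out its target and is used as given.

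The peaks came from CUT&RUN, in which an antibody brings micrococcal nuclease, fused to protein A/G, to its target and the DNA cut free is sequenced. The labels name no treatment or genotype beyond the cell line, with 1 library for each of H3K4me3, RUNX1 and SMA4, and 2 IgG controls whose peaks were not used here. There were no replicates, so no difference between windows or between antibodies was tested, and no value has a replicate error. The lists give peak positions and no scores or read counts, so the depth behind each peak is unknown. The SMA4 list came from a folder named for batch 3 and from another peak-calling pipeline than the RUNX1 and H3K4me3 lists of batch 2. Antibody, batch and pipeline cannot be told apart for SMA4. As a check of the cell line, a 60 kb window over the T cell genes CD3E, CD3D and CD3G held 4 H3K4me3 peaks. The widest of them was 3090 bp. A 30 kb window over the myeloid gene CD33 held 0. With 4.35 H3K4me3 peaks per Mb in the whole list, a window of that length was likely to hold 0, so the CD33 count says little.

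E proteins are basic helix-loop-helix transcription factors that bind E boxes, with the letters CANNTG, as dimers. In developing T cells, TCF3 (also called E2A) and TCF12 (also called HEB) drive commitment to the lineage and rearrangement of antigen receptor genes, while TCF4 (also called E2-2) is best known for plasmacytoid dendritic cells and the nervous system. ID proteins have the helix-loop-helix but no basic region, so a dimer of an ID protein with an E protein does not bind DNA. ID3 is induced by signals from the T cell receptor, and ID2 is a regulator of innate lymphoid and natural killer cells.

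TCF3, ID2 and ID3 each have 1 start in the RefSeq promoter table of GRCh38.p14, so the promoters of these genes are shown. They were not tied to the peaks. Each line gives the 250 bases before the start on the gene's strand, 5′ to 3′, with E boxes (CANNTG) in capitals. In that build they lie at chr19:1652616-1652865 on the minus strand for TCF3, chr2:8681806-8682055 on the plus strand for ID2 and chr1:23559502-23559751 on the minus strand for ID3.
TCF3: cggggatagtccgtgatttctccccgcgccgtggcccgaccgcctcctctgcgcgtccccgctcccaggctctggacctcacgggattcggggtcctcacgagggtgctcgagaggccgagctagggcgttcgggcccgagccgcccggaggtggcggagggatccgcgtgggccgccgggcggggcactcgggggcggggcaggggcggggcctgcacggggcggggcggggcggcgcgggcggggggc
ID2: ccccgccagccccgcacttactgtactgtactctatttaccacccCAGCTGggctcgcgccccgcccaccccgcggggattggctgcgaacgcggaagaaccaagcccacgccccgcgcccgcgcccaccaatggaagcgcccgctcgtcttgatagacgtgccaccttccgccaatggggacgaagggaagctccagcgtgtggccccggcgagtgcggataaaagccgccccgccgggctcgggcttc
ID3: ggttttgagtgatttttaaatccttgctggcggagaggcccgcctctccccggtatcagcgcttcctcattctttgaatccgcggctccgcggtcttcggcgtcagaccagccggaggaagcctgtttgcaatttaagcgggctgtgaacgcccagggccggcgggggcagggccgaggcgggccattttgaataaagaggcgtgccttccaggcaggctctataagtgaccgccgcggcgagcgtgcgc

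The ID2 promoter held 1 E box, and those of TCF3 and ID3 held 0. Of 35116 promoters in the table, 61.8% held an E box. A search of both strands for TGTGGT, the core of the RUNX motif, found it in 0 of the 18 listed promoters of the 5 genes. Among all promoters, 10.98% held it. Most of the 18 are starts of TCF12 and TCF4, and with so few promoters a difference was not tested. TCF12 has 5 starts in the table, of which 2 had an E box, and TCF4 has 10, of which 5 had one. The table does not share the build of the peaks, so whether a peak covers these letters was not analysed here.

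In every window except ID2, the widest H3K4me3 peak lay on a RUNX1 peak. All 8 H3K4me3 peaks of the windows overlapped RUNX1 (exact 95% binomial interval 63.1 to 100%), beside 88.1% of the 13181 H3K4me3 peaks on chromosomes 1 to 22 and X. Of the 39 RUNX1 peaks, 9 overlapped H3K4me3 (23.1%, exact interval 11.1 to 39.3%), beside 32.2% of the whole RUNX1 list. Both intervals hold the share of the whole list, so a difference from it was not detectable with this number of peaks. These intervals reflect counting error alone, and peaks that lie close together are not independent.

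**Figure D1:**
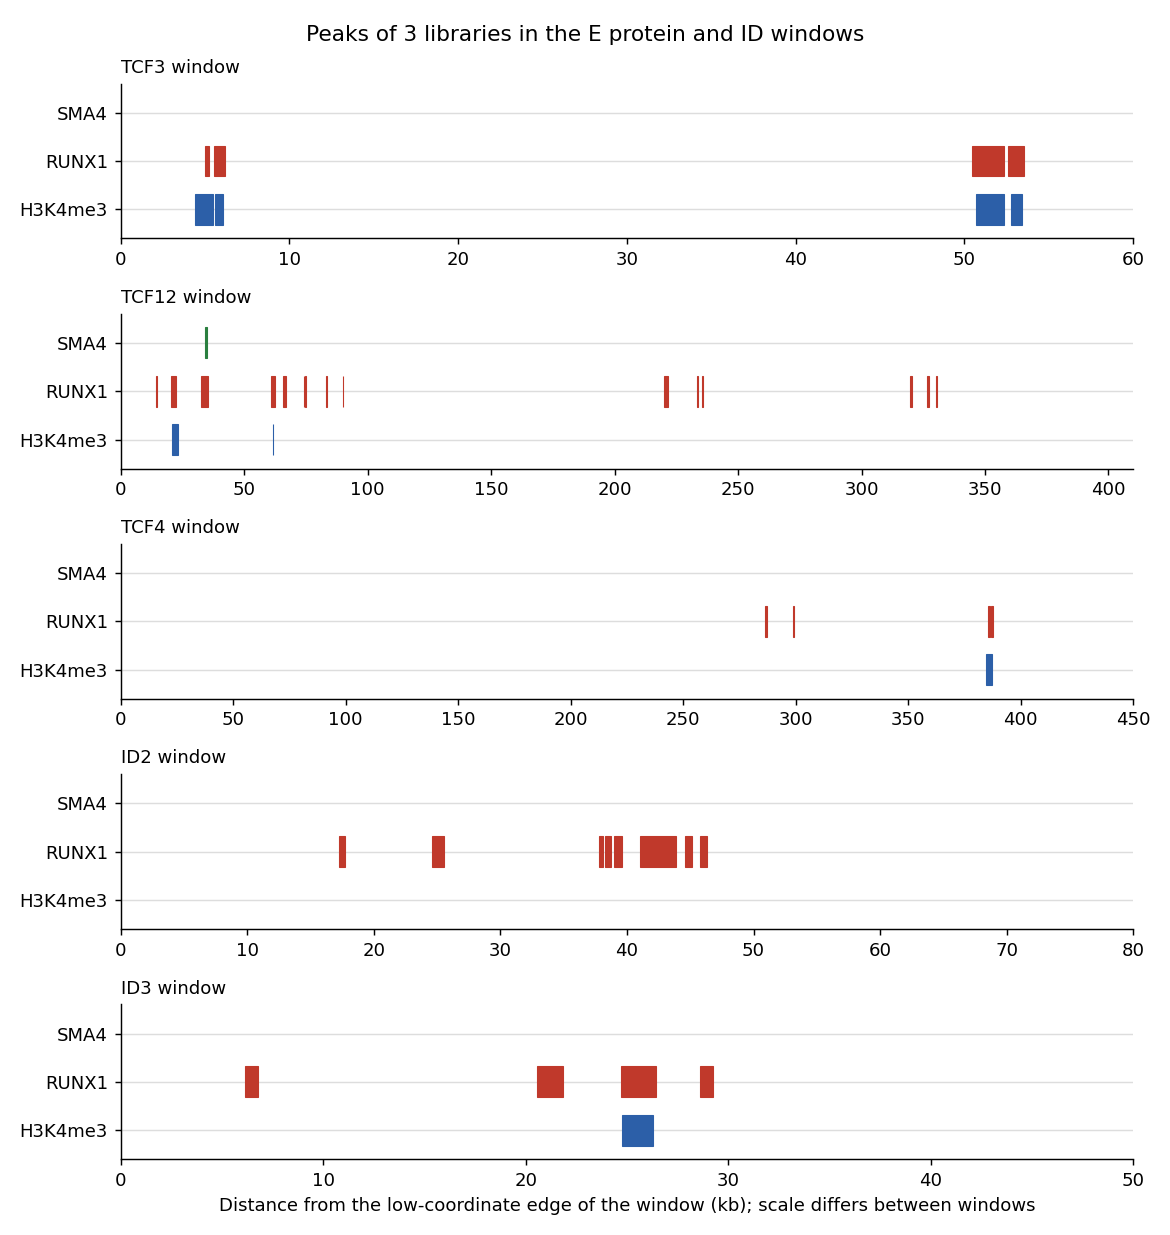
Peaks of the SMA4 (green), RUNX1 (red) and H3K4me3 (blue) libraries in each window, drawn along the distance in kb from the window's low-coordinate edge. The scale differs between windows. Each of the 8 H3K4me3 peaks overlaps a RUNX1 peak in the lists as deposited, the ID2 window has 8 RUNX1 peaks and 0 H3K4me3 peaks, and the 1 SMA4 peak lies in the TCF12 window.

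At TCF3, all 4 RUNX1 peaks lay on the histone mark, with an exact 95% interval of 39.8 to 100% beside the 32.2% of the whole list. The 4 peaks stood in only 2 places, so they are not 4 independent counts. The window held 4 RUNX1 and 4 H3K4me3 peaks in 2 places near its ends. TCF3 is on the minus strand, so its start is towards the high coordinates, where the widest H3K4me3 peak of the window ran from 1650677 to 1652345 (1669 bp). It lay wholly within the widest RUNX1 peak, from 1650443 to 1652372 (1930 bp). Only 4.47% of the RUNX1 list was at least as wide. Directly beside it, an H3K4me3 peak of 656 bp from 1652740 to 1653395 lay wholly within a RUNX1 peak of 951 bp from 1652562 to 1653512. The paired peaks of both lists were thus separated by short gaps, of 0.189 kb for RUNX1 and 0.394 kb for H3K4me3.

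The other pair of peaks in the TCF3 window lay at its low-coordinate end. There, H3K4me3 peaks of 1053 bp, from 1604393 to 1605445, and 500 bp, from 1605567 to 1606066, met RUNX1 peaks of 221 bp, from 1605022 to 1605242, and 643 bp, from 1605550 to 1606192. The RUNX1 peak of 221 bp has the minimum width of its list and covered 21.0% of its H3K4me3 peak, whereas the other RUNX1 peak covered 100% of its own. Without peaks of minimum width, the H3K4me3 peak of 1053 bp had no RUNX1 peak, and 85.7% of the H3K4me3 peaks left in the 5 windows overlapped RUNX1. In GRCh38, UQCR11, which encodes a subunit of respiratory complex III, is the next protein-coding gene on that side of TCF3. Whether these peaks belong to UQCR11 or to TCF3 was not tested. Between the pairs, 44.3 kb of the window held no RUNX1 peak and 44.6 kb held no H3K4me3 peak.

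TCF12, in a window of 410 kb, had the most RUNX1 peaks of the 5 genes and the only SMA4 peak. Per Mb, TCF12 had fewer RUNX1 peaks than ID2, ID3 and TCF3. Its window held 18 RUNX1 peaks, 2 H3K4me3 peaks and 1 SMA4 peak. TCF12 is on the plus strand, and its widest H3K4me3 peak, from 57210643 to 57213017 (2375 bp), lay near the low-coordinate end of the window. Of the H3K4me3 list, 6.35% was at least as wide. The widest RUNX1 peak of the window, from 57210533 to 57212320 (1788 bp), covered 70.7% of it and left its high-coordinate part uncovered. The second H3K4me3 peak, from 57251553 to 57251731, was 179 bp wide, the minimum of its list, and lay within a RUNX1 peak of 984 bp from 57251003 to 57251986.

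The SMA4 peak ran from 57224321 to 57224878 on chromosome 15. At 558 bp it was wider than most of its list, of which 4.75% was at least as wide. It lay wholly within the second widest RUNX1 peak of the window, from 57223474 to 57225161 (1688 bp), and took up 33.1% of it, 847 bp from the low-coordinate edge and 283 bp from the other. It did not overlap the mark, and the nearest H3K4me3 peak was 11.3 kb away. This place therefore had called peaks of RUNX1 and SMA4 and no called H3K4me3 peak. A weak mark and an absent one cannot be told apart here. In the whole list, 65.9% of SMA4 peaks overlapped RUNX1 and 21.8% overlapped H3K4me3, and 1 peak cannot be set against these shares. The next SMA4 peak on the chromosome was 247.9 kb away, outside the window.

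The remaining RUNX1 peaks of TCF12 extended far into the window. Joined where gaps were at most 15 kb, the 18 peaks formed 4 groups. The first spanned 20.7 kb and held 4 RUNX1 peaks, the widest H3K4me3 peak and the SMA4 peak. The second, from 57251003 to 57280203, held 8 RUNX1 peaks and the H3K4me3 peak of minimum width. The third, from 57410203 to 57425866, and the fourth, from 57509764 to 57520599, held 3 RUNX1 peaks each and neither of the other targets. The third widest RUNX1 peak of the window, from 57410203 to 57411453 (1251 bp), opened the third group, 199 kb from the midpoint of the widest H3K4me3 peak. Of the 18 RUNX1 peaks, 16 lay outside H3K4me3 and 11.1% on it (exact 95% interval 1.38 to 34.7%). The interval includes the 32.2% of the whole list, but peaks of the same group are not independent counts. A difference from the list was not tested. The 16 peaks outside H3K4me3 had a median width of 407.5 bp, below the 527 bp of all RUNX1 peaks outside the mark. Of these 16, 3 had the minimum width of 221 bp. In the whole list, peaks of that width begin at rank 34999 of 36736 by width, and a difference was not tested.

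TCF4, although its window was the longest, had few peaks. It held 5 RUNX1 peaks, 1 H3K4me3 peak and 0 SMA4 peaks. The H3K4me3 peak ran from 53254798 to 53257216 and, at 2419 bp, was the widest of all 8 in the windows. TCF4 is on the minus strand, and the peak lay towards the high-coordinate end of the window. Its centre was taken by the widest RUNX1 peak of the window, from 53255482 to 53256528 (1047 bp), whose midpoint was within 0.002 kb of that of the mark. A second RUNX1 peak, from 53256790 to 53257611 (822 bp), ran over its high-coordinate edge. Together the pair covered 60.9% of the H3K4me3 peak. The remaining 3 RUNX1 peaks, of 357, 577 and 627 bp, lay 86.9 to 99.6 kb towards lower coordinates and outside the mark. The widest of these ran from 53156798 to 53157424. RefSeq lists 10 starts for TCF4 in GRCh38.p14, and the single H3K4me3 peak was not assigned to any of them.

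**Figure D2:**
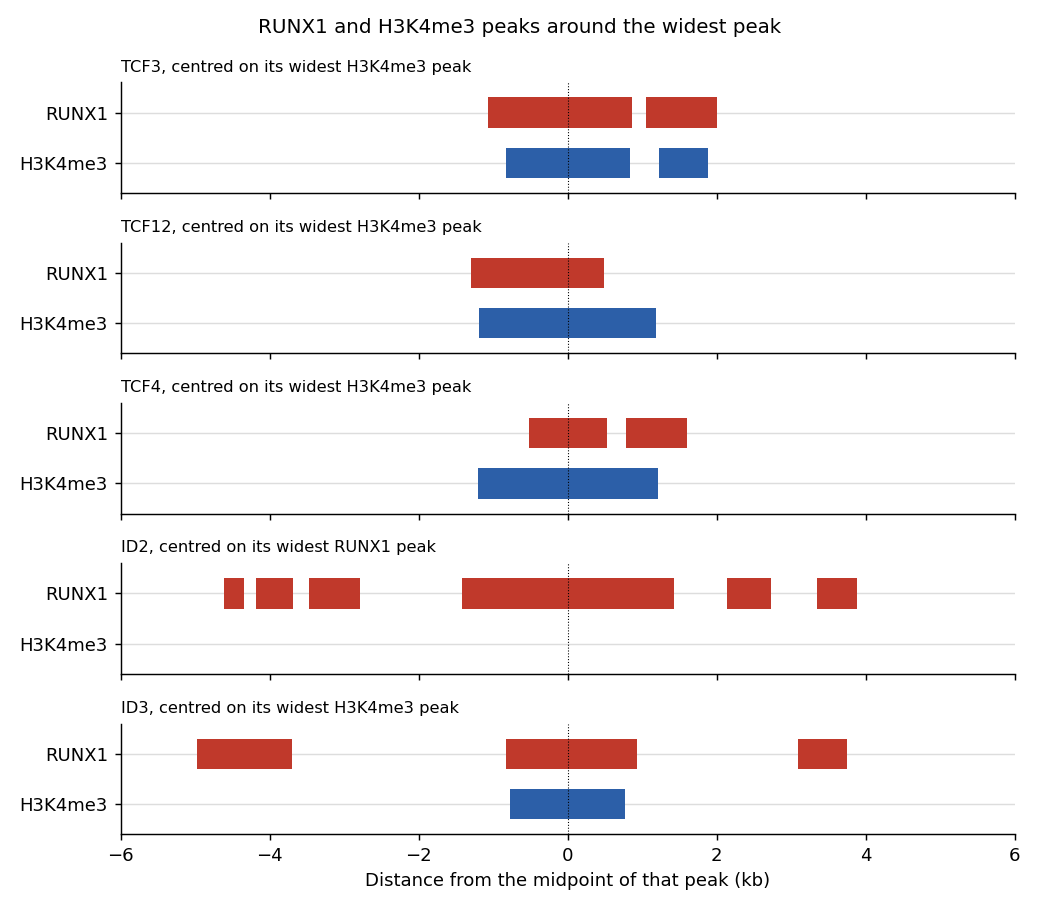
RUNX1 (red) and H3K4me3 (blue) peaks within 6 kb of the midpoint of the widest H3K4me3 peak of each window, or of the widest RUNX1 peak for ID2, which has no H3K4me3 peak. RUNX1 covers all of the widest H3K4me3 peak at TCF3 and ID3, 70.7% at TCF12 and 60.9% at TCF4, and at ID2 a row of RUNX1 peaks stands without the mark.

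ID2 had the widest RUNX1 peak of all 5 windows, and no H3K4me3 peak. Its 8 RUNX1 peaks were led by one of 2850 bp, from 8821009 to 8823858 on chromosome 2. It ranked 347 among 36736, so that 0.947% of the list was at least as wide. Close on either side lay peaks of 688 bp, from 8818959 to 8819646, and 588 bp, from 8824572 to 8825159. In all, 6 of the 8 peaks stood between 8817820 and 8826314. The second widest, from 8804565 to 8805575 (1011 bp), and a peak of 499 bp, from 8797240 to 8797738, were set apart towards lower coordinates. Joined at gaps of up to 15 kb, all 8 formed 1 group of 29.1 kb.

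The nearest H3K4me3 peak to the ID2 window began at 8976985, 117 kb beyond its edge. From the widest RUNX1 peak it was 153.1 kb away. The list holds no signal below the authors' threshold, so a weak mark and an absent one cannot be told apart. A RUNX1 peak of this width without the mark was no exception in the list. Of 348 RUNX1 peaks of at least 2850 bp, 230 overlapped H3K4me3 (66.1%, exact 95% interval 60.9 to 71.1%) and 33.9% did not. The share of ID2 RUNX1 peaks on the mark was 0 of 8, with an exact upper limit of 36.9%, which includes the 32.2% of the whole list. These 8 peaks stood in 1 group, so they are not 8 independent counts.

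ID3 had RUNX1 and H3K4me3 together. Its window held 4 RUNX1 peaks and 1 H3K4me3 peak, from 23884753 to 23886290 on chromosome 1 (1538 bp). The widest RUNX1 peak, from 23884688 to 23886452 (1765 bp), enclosed the mark entirely, and their midpoints were 0.0485 kb apart. Of the RUNX1 list, 6.09% was at least as wide. RUNX1 peaks of 1281 bp, from 23880544 to 23881824, and 654 bp, from 23888612 to 23889265, flanked it on both sides without touching the mark, 2.93 and 2.32 kb from its edges. The fourth, of 604 bp from 23866157 to 23866760, lay 8.19 kb from its nearest H3K4me3 peak, a different one outside the window, on the side where E2F2 is the next protein-coding gene in GRCh38.

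ID1 and ID4, the other genes of the ID family, were examined in windows of 50 and 60 kb placed from general knowledge of hg19. ID1 had 5 RUNX1 peaks and 0 H3K4me3 peaks, with the widest RUNX1 peak from 30192789 to 30193789 on chromosome 20 (1001 bp). ID4 had 0 peaks in all 3 lists. Of the 4 ID genes, ID3 alone thus had an H3K4me3 peak in its window, while ID2, ID3 and ID1 had RUNX1 peaks. With 4.35 H3K4me3 peaks per Mb in the whole list, windows this short were likely to hold 0. The counts of 0 at ID1, ID2 and ID4 therefore say little, and a difference from ID3 was not tested. All 4 windows held 0 SMA4 peaks.

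**Figure D3:**
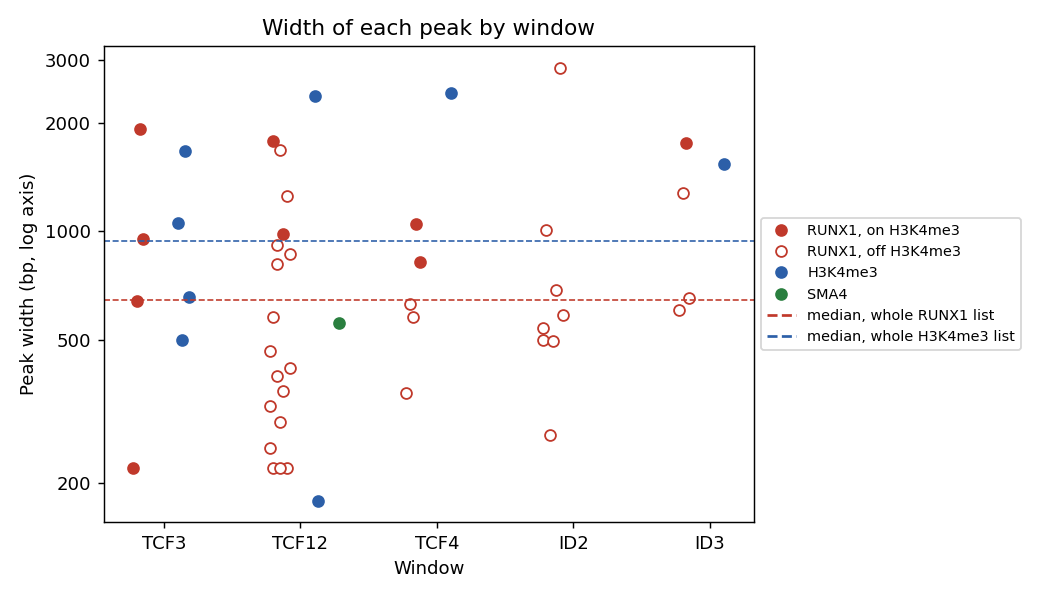
Width in bp, on a log axis, of every peak in the windows, with RUNX1 peaks on H3K4me3 filled and those off it open. Dashed lines mark the medians of the whole RUNX1 list (645 bp) and the whole H3K4me3 list (938 bp), and the widest RUNX1 peak, at ID2, is open.

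Over the 5 windows, RUNX1 peaks on the mark had a median width of 984 bp (n = 9) and those off it 558 bp (n = 30), close to the 1012 and 527 bp of the whole list. The ranges overlapped, with 221 to 1930 bp on the mark and 221 to 2850 bp off it. Of the 39 peaks, 17 were wider than the median of their list and 4 had its minimum width. Peaks of minimum width begin at rank 34999 of the 36736 in the list, and a difference from it was not tested. Among the widest RUNX1 peaks of each window, those of TCF3, TCF12, TCF4 and ID3 lay on the mark, and that of ID2 did not.

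The density of RUNX1 peaks was highest in the short windows around ID2, ID3 and TCF3. It was 100 peaks per Mb at ID2 (exact 95% Poisson interval 43.2 to 197), 80 at ID3 (21.8 to 204.8), 66.7 at TCF3 (18.2 to 170.7), 43.9 at TCF12 (26.0 to 69.4) and 11.1 at TCF4 (3.61 to 25.9). The whole list had 12.1 peaks per Mb. The whole chromosome of ID2 had 11.9 peaks per Mb, that of ID3 14.8, that of TCF3 26.8, that of TCF12 12.6 and that of TCF4 7.46. The intervals at ID2, ID3 and TCF12 lay above both values, whereas that of TCF4 included both and that of TCF3 included its chromosome's density. These Poisson intervals take peaks to be independent, but RUNX1 peaks often lay close together, so the intervals are likely too narrow. Whether any window was denser than its chromosome or the list was therefore not tested. High densities were not particular to these genes. The window of ID1 also had 100 RUNX1 peaks per Mb and that of the CD3 genes 183.3. Densities over all genes were not computed. The order also depended on the window edges. Widened by 20 kb on each side, ID3 had 122.2 peaks per Mb and ID2 66.7.

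**Figure D4:**
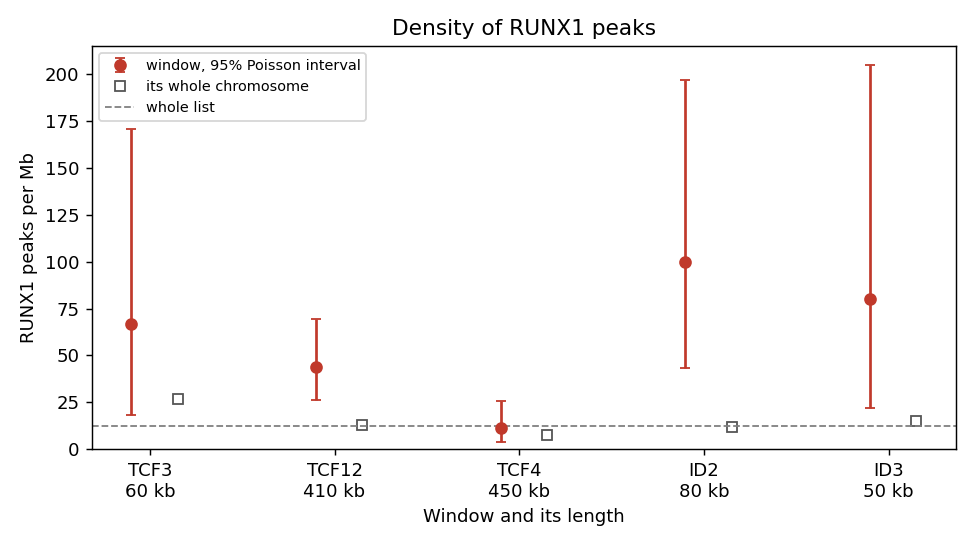
RUNX1 peaks per Mb in each window with exact 95% Poisson intervals (red), on its chromosome (open squares) and in the whole list (dashed line, 12.1 per Mb). The 3 short windows have the highest values and the widest intervals, and TCF4, at 11.1 per Mb, lies near the whole list. The intervals take peaks to be independent and are likely too narrow.

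The same distance was then used for every gene. Within 25 kb of the midpoint of the widest RUNX1 peak there were 7 other RUNX1 peaks at ID2, 4 at TCF12, 3 at ID3, 1 at TCF4 and 1 at TCF3. RUNX1 peaks of the whole list, of any width, had a median of 2 such neighbours (quartiles 1 and 4), and 8.71% had at least 7. The values per gene are for the widest peak of a window, so they are not like for like with the list. They also depend on the distance chosen, and no other was tried. The count at ID2 includes the peak from 8797240 to 8797738, which lay only just within 25 kb. That at TCF12 includes a peak outside its window, from 57186667 to 57187384, also near the limit. TCF3, with a density of 66.7 per Mb in its window, had as few neighbours as TCF4. The differences between genes were not tested.

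SMA4 was at 1 of the 39 RUNX1 peaks (2.56%, exact interval 0.0649 to 13.5%) and at 0 of the 8 H3K4me3 peaks, beside 2.56% and 2.39% of the whole lists. The share at RUNX1 peaks rests on 1 SMA4 peak, so its match to the list carries no weight. The nearest SMA4 peak was 96.1 kb from the ID2 window, 413.9 kb from the ID3 window, 892.9 kb from the TCF3 window and 3487 kb from the TCF4 window. With 0.486 SMA4 peaks per Mb in the whole list, windows of this length were expected to hold few or none, so the counts of 0 show no difference between the genes.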

How the data were processed

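Per the labels, 5 MOLT-4 samples were made, and peak lists of 3 libraries were analysed, 1 each for SMA4, RUNX1 and H3K4me3. The authors deposited each list as chromosome, start, end and name, with no score. Per the file headers, RUNX1 and H3K4me3 peaks came from MACS2 and SMA4 peaks from cutruntools at a q-value threshold of 0.01. Per the submitters' processing notes, the tools were MACS2 and SEACR and the build hg19. Neither the aligner nor the threshold behind the MACS2 lists is stated (not given in the sources used here).

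Peaks on the 22 autosomes and X were kept, with coordinates written 1-based. Overlap meant at least 1 bp. Densities used the highest peak end of any list as each chromosome's length. Overlap code was tested on simulated data. Intervals are exact binomial (Clopper-Pearson) or exact Poisson, at 95% (Python 3.11.15, scipy 1.17.1). No test was run. Text names every SMA4 peak and the 3 widest RUNX1 and H3K4me3 peaks per window. Others named in the text, the 25 kb counts, the 15 kb groups and the list of RUNX1 peaks of at least 2850 bp were chosen after values were seen. Genes, windows and lists were chosen with earlier results of these data known. Promoters came from RefSeq (GRCh38.p14), where all 5 genes matched by symbol. One marker gene of the cell line check is not reported here, for a reason unrelated to its values.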

Additional observations from a re-analysis of the deposited data

How the results depend on the processing

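Counts were recomputed with peaks assigned by midpoint or only when whole, with windows widened by 20 kb, with peaks within 200 bp merged and without peaks of minimum width. Overlaps were recomputed at 50% of the shorter peak, within 1 kb and without peaks of minimum width. All 27 values over the 5 windows stayed within 1.5 times the count or within the share's interval. The H3K4me3 total rose from 8 to 12 on widening, which is at that limit. The SMA4 shares rest on 1 peak, with intervals of 2.5 to 100% and 0 to 97.5%, so they could hardly move further. Of 105 values for single windows of these genes, ID1 and ID4, 5 moved further, but not all 105 could move. The counts of 0 SMA4 peaks at TCF3, TCF4, ID2 and ID3 were fixed. The nearest SMA4 peak lay 96.1 kb or more from each of these windows. Widening gave 11 RUNX1 and 3 H3K4me3 peaks at ID3, 8 RUNX1 peaks at ID1 and 1 at ID4. Without peaks of minimum width TCF12 had 1 H3K4me3 peak. The share of H3K4me3 peaks on RUNX1 was then 85.7%, against 100% as deposited. ID2 had 0 H3K4me3 peaks under every setting of the counts, but no setting could have changed this. The nearest H3K4me3 peak lay 117 kb beyond its window, and the windows were widened by 20 kb. A stricter threshold could not be tried without scores. No paired analysis was possible because each antibody had 1 library. Depth is unknown, so weak or missing peaks cannot be told apart.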
